A study of Homo sapiens with 6 samples.

Results

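Transcripts of 10 genes of the E2F and retinoblastoma network were followed in C4-2 cells, a castration-resistant human PCa cell line derived from LNCaP. The genes were chosen by symbol: the E2F transcription factor genes E2F1, E2F2, E2F3, E2F4, E2F7 and E2F8, the dimerization partner gene TFDP1, and the genes of the retinoblastoma (pocket) proteins RB1, RBL1 and RBL2. This choice was made with earlier results of these data known. All 10 were among the 55765 gene symbols counted and among the 16835 genes that passed the filter on low counts. RNA-seq was compared between 3 libraries of cells given the solvent DMSO and 3 of cells given 1 nM R1881 (methyltrienolone, a stable synthetic androgen), a supraphysiological androgen level (SAL), each for 72 h. All cells were of this single line and were cultured in DMEM with FBS, and the libraries were numbered 1 to 3 within each group. The comparison asks how SAL, which is known to slow PCa cell growth, changed the transcripts of this network.

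In the textbook view of this network, RB1 and its relatives RBL1 and RBL2 bind E2F factors and hold their target genes silent until cyclin-dependent kinases phosphorylate the pocket proteins in G1. E2F1, E2F2 and E2F3 are then the activating factors, while E2F4 works mainly as a repressor, together with RBL2 in resting cells. Each of these E2F factors needs a DP partner such as TFDP1. E2F7 and E2F8 are atypical members that bind DNA without a DP partner and repress E2F targets late in the cycle. Several genes of the network, among them E2F1, E2F2, E2F7, E2F8 and RBL1, are themselves E2F targets, whereas E2F4 and RBL2 are expressed in resting cells too.

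The promoters of E2F1, E2F2 and RBL1 are shown because E2F motifs cluster beside their start sites, and that of E2F4 is shown for contrast. Each line gives the 130 bases before the annotated start, 5′ to 3′ on the gene's strand, from RefSeq on GRCh38.p14. They lie at chr20:33686386-33686515 (minus strand), chr1:23531234-23531363 (minus strand), chr20:37095998-37096127 (minus strand) and chr16:67192025-67192154 (plus strand). Capitals mark matches on either strand to TTTNNCGC, the E2F motif that was searched, or to TTTNGCG, a related form added after the sequences had been read, and overlapping matches run together.
E2F1: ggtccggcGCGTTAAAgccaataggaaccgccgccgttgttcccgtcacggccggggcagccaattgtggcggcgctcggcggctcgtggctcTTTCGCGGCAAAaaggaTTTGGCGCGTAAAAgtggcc
E2F2: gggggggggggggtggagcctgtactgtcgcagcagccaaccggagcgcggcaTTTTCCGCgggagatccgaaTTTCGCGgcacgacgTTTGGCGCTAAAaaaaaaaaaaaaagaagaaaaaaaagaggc
RBL1: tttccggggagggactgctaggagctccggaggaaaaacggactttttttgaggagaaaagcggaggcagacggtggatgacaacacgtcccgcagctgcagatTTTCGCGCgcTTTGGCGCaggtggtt
E2F4: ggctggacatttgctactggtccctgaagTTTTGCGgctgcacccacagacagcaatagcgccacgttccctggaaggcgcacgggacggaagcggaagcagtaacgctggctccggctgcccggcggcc

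In the window from 250 bases before to 50 bases after the start, TTTNNCGC was found 4 times for E2F1, 3 times for E2F2 and 2 times for RBL1, and 1 time each for TFDP1 and the first of the 2 entries of E2F3. No match to these letters was found for E2F4, E2F7, either entry of RBL2 or the second entry of E2F3. Of all 35116 promoters of this length in the table, 6.89% held TTTNNCGC at least once and 0.558% held 2 or more matches. The letters TTTGGCGC began 20 bases before the start of E2F1, 42 bases before that of E2F2 and 16 bases before that of RBL1. The related form TTTNGCG, which was in 5.14% of all promoters, was found 2 times in E2F1, 3 times in E2F2 and 2 times in RBL1. It was found 1 time each in E2F4, E2F7, TFDP1 and the first entry of E2F3. Some of these matches overlap matches to TTTNNCGC. CCAAT, the NF-Y motif, was found 3 times in E2F1, 4 times in E2F7 and 4 times in the first entry of E2F3, and was in 34.6% of all promoters. TTTGAA, the core of the CHR element, was found in the first entries of E2F3 and RBL2 and in 15.2% of all promoters, and GGGCGG, the SP1 motif, was in 45.0% of them. The entry for RB1 began 172699 bases inside the gene and was not used, and E2F8 had no entry.

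Between 6931042 and 9776990 counts per library remained after rRNA genes were removed, and the 10 genes had from 22 to 1425 counts in a library. The 9 luminal prostate markers were all counted, and 5 of the 9 were higher in SAL in the test described next, KLK3 with a log2 fold change of 1.21 (adjusted p = 3.33e-07). The stromal marker COL1A2, the endothelial marker CDH5 and the immune markers PTPRC and CD3E had no count in any library. The stromal marker COL1A1 had 14 to 88 counts per library and the endothelial marker VWF had 4 to 35, and both passed the filter. COL3A1, DCN, LUM, CD68 and LYZ had at most 6 counts in a library. The summed level was between 2.43 and 11.1 CPM for the 5 stromal markers, between 0.496 and 3.84 CPM for the 2 endothelial markers in the count files and between 0.246 and 0.668 CPM for the 4 immune markers. Of the reads in genes, in overlapping genes or outside genes, those outside genes made up 41.7%, 32.6% and 51.1% for DMSO replicates 1 to 3 and 42.6%, 26.7% and 46.3% for SAL, so this share moved with the replicate number, and its part in the results was not tested. The removed rRNA genes held 11.9% to 27.8% of the gene counts.

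Of the 10 genes, 6 were downregulated by SAL, namely E2F1, E2F2, E2F7, E2F8, RBL1 and TFDP1, and none was upregulated. The other 4, E2F3, E2F4, RB1 and RBL2, did not pass the test. Over all genes tested, 20.8% passed the test in either direction, 9.37% were lower and 11.5% were higher in SAL. The median log2 fold change was -0.59 over the 10 genes and -0.0011 over all genes tested. Genes were called at an adjusted p under 0.05 in edgeR's quasi-likelihood test with the replicate number as a block and Benjamini-Hochberg adjustment over all genes tested. All 6 downregulated genes were lower in SAL in each of the 3 same-numbered pairs. Without the replicate block, none of the 10 was called, with 1 at an unadjusted p under 0.05, and 21 of all genes were. Levels are given in CPM (a gene's share of the TMM-scaled library size, in counts-per-million). In these bulk libraries, fewer cells in a cycle phase and less RNA per cell cannot be told apart.

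**Figure D1:**
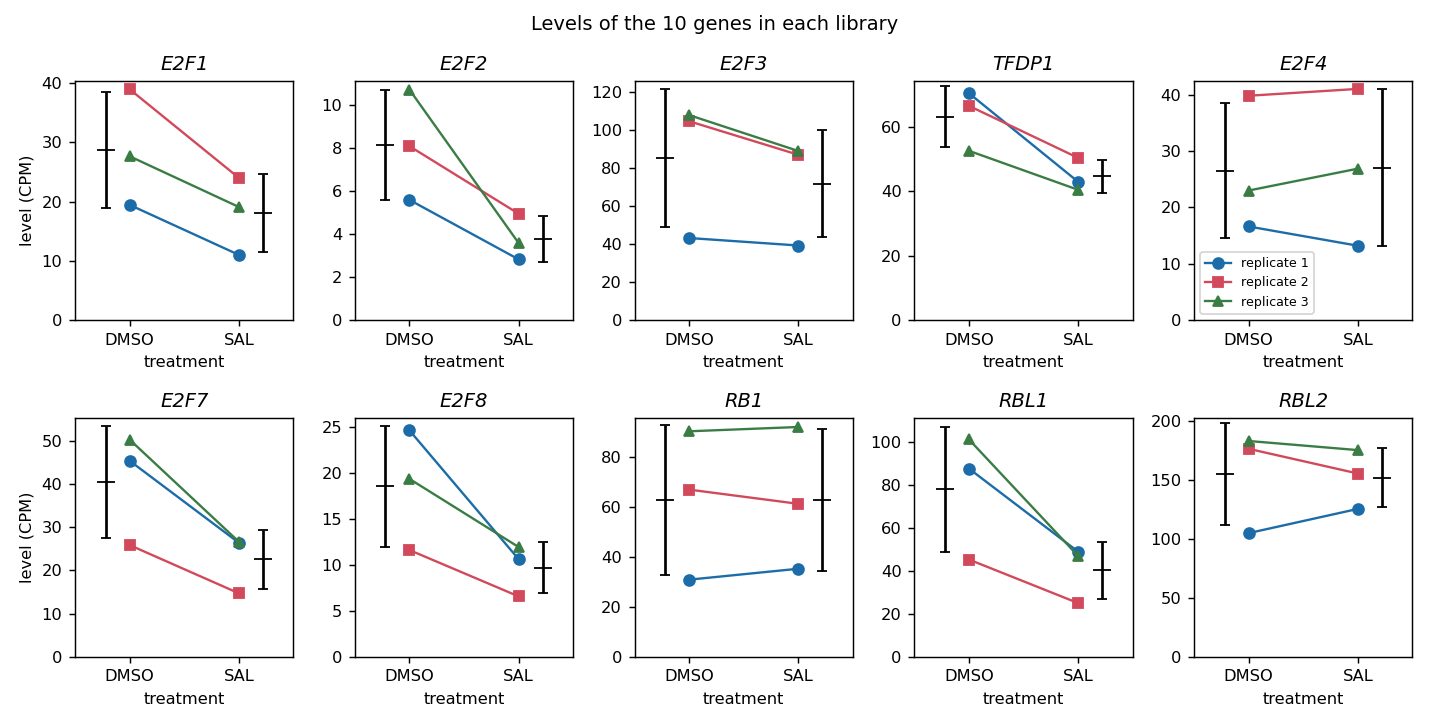
Level in CPM (y axis, from 0, a different scale in each panel) of the 10 genes in DMSO and SAL. Coloured points joined by a line are same-numbered libraries, and black bars give the mean ± SD (n = 3). All 3 lines fall for E2F1, E2F2, E2F7, E2F8, RBL1 and TFDP1, while those of RB1 run at 3 different heights with small changes in both directions.

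Among the activating factors, E2F1 on chromosome 20 (32263283 to 32274191 in GRCh37, minus strand) was at 19.5, 39.0 and 27.7 CPM in DMSO (replicates 1, 2 and 3, an order kept for all genes) and at 11.01, 24.0 and 19.1 CPM in SAL. Each SAL library was below its own DMSO library, although the groups overlapped because replicate 2 was high in both. SAL lowered it by a log2 fold change of -0.68 (SE 0.13, adjusted p = 0.00187), that is 0.625-fold with a 95% confidence interval from 0.513 to 0.762. The changes in the 3 pairs were -0.81, -0.69 and -0.53. E2F1 was called in 9 of 9 alternative settings that kept the block.

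E2F2, on chromosome 1 (23832930 to 23857725, minus strand), was the lowest of the 10, with 45, 59 and 80 counts in DMSO and 22, 45 and 29 in SAL. These were 5.58, 8.07 and 10.7 CPM in DMSO and 2.82, 4.93 and 3.57 CPM in SAL. Every SAL library lay below every DMSO library. Such separation, in either direction, held for 2 of the 10 genes, E2F2 and TFDP1, and for 7.51% of all genes tested. The unpaired two-sided exact permutation test gave p = 0.1 for E2F2 and for TFDP1, the smallest p that 3 against 3 allows. E2F2 changed by -1.09 on the log2 scale (SE 0.24, adjusted p = 0.00417), with -0.93, -0.68 and -1.52 in the pairs. Counting error alone gives a standard error of 0.375, 0.286 and 0.313 to these 3 changes, so their order is not resolved. Without replicate 3, the log2 fold change was -0.83 and E2F2 was not called (adjusted p = 0.156, against 0.00023 to 0.0208 in the other settings with the block).

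E2F3 on chromosome 6 (20402110 to 20493945, plus strand), the third activating factor, was at 43.1, 104 and 108 CPM in DMSO and 39.2, 86.8 and 88.8 CPM in SAL. Replicate 1 was lowest in both groups, and the groups overlapped. The fitted log2 change was -0.23 (SE 0.10, unadjusted p = 0.0283, adjusted p = 0.104 in edgeR), with a 95% confidence interval from -0.44 to -0.03 and with -0.14, -0.27 and -0.28 in the pairs. E2F3 was called only without replicate 1 (log2 fold change -0.27, adjusted p = 0.0479), and its adjusted p was 0.0953 to 0.559 in the other settings with the block.

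TFDP1 on chromosome 13 (114239036 to 114295788, plus strand), which encodes the DP1 partner of the typical E2F factors, was at 70.4, 66.5 and 52.5 CPM in DMSO and 42.9, 50.3 and 40.4 CPM in SAL. All SAL libraries were below all DMSO libraries. TFDP1 changed by -0.50 on the log2 scale (SE 0.11, adjusted p = 0.00350), with -0.71, -0.40 and -0.38 in the pairs. Without replicate 3, the log2 change of TFDP1 was -0.56 and missed the threshold (adjusted p = 0.0570), and in the other settings with the block the adjusted p was between 0.000234 and 0.0121. TFDP2, which encodes another DP partner, was at 86.0 CPM in DMSO and 95.7 CPM in SAL on average (log2 change 0.16, adjusted p = 0.281).

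E2F4 on chromosome 16 (67226058 to 67232821, plus strand), the repressor E2F of resting cells, was at 16.6, 39.8 and 23.0 CPM in DMSO and 13.2, 41.0 and 26.9 CPM in SAL. It was lower in SAL in pair 1 and higher in pairs 2 and 3, by -0.33, 0.04 and 0.22. The fitted log2 change was 0.00027 (SE 0.15, adjusted p = 1.00), with a 95% confidence interval of the fold from 0.806 to 1.24. E2F6, a repressor E2F that does not bind pocket proteins, had a log2 fold change of -0.16 (SE 0.19, adjusted p = 0.635).

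The atypical repressors fell together. E2F7 on chromosome 12 (77415028 to 77459349, minus strand) was at 45.3, 25.8 and 50.2 CPM in DMSO and 26.4, 14.7 and 26.6 CPM in SAL. Its log2 fold change was -0.84 (SE 0.12, adjusted p = 0.000103), with -0.78, -0.80 and -0.91 in the pairs. The SD of these changes, 0.071, was the smallest of the 10 genes. Counting error alone gives these changes standard errors of 0.126, 0.163 and 0.123. The SD is below them, so its rank is not resolved. E2F8 on chromosome 11 (19245610 to 19263167, minus strand) was at 24.7, 11.6 and 19.4 CPM in DMSO and 10.6, 6.58 and 11.95 CPM in SAL. Its log2 fold change was -0.92 (SE 0.17, adjusted p = 0.00112), with -1.19, -0.80 and -0.69 in the pairs. For both genes replicate 2 was lowest in each group, the groups overlapped, and 9 of 9 settings with the block called the gene. The within-library ratio of E2F8 to E2F7 counts, which does not depend on library scaling, averaged 0.456 in DMSO and 0.434 in SAL (geometric means). Its log2 change was -0.43, -0.0044 and 0.22 in the pairs (unpaired two-sided exact permutation test of the ratio, p = 0.7).

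**Figure D2:**
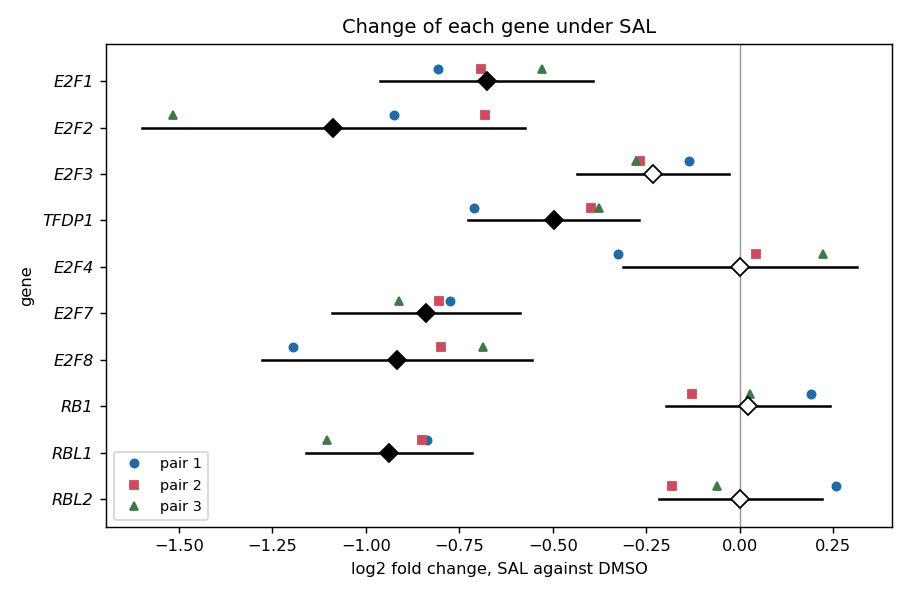
Log2 fold change of SAL against DMSO (x axis) for the 10 genes. Diamonds with lines are the edgeR estimates with 95% confidence intervals, filled where the adjusted p was under 0.05, and small coloured symbols are the changes in the 3 same-numbered pairs. The 6 filled estimates lie between -1.09 and -0.50, and those of E2F4, RB1 and RBL2 lie near 0.

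The 3 pocket protein genes differed in their values. RB1 on chromosome 13 (48877880 to 49173572, plus strand), the retinoblastoma tumor suppressor gene, was at 30.8, 66.9 and 90.2 CPM in DMSO and 35.2, 61.2 and 91.9 CPM in SAL. The mean log2 levels of the replicate numbers spanned 1.46, while the pairs changed by 0.19, -0.13 and 0.03. The log2 fold change was 0.02 (SE 0.10, adjusted p = 0.915), and the 95% confidence interval of the fold ran from 0.872 to 1.18.

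RBL1 on chromosome 20 (35624752 to 35724400, minus strand), which encodes p107, the pocket protein of cycling cells, was at 87.6, 45.3 and 101 CPM in DMSO and 48.9, 25.0 and 46.9 CPM in SAL. The pairs changed by -0.84, -0.85 and -1.10 on the log2 scale, and the groups overlapped because replicate 2 was low in both. The log2 fold change was -0.94 (SE 0.10, adjusted p = 1.07e-05), or 0.522-fold with a 95% confidence interval from 0.447 to 0.609, which was the smallest adjusted p of the 10 genes. It was called in all 9 settings with the block, with adjusted p up to 0.00423.

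RBL2 on chromosome 16 (53467889 to 53525560, plus strand), which encodes p130, the pocket protein of resting cells, was at 105, 177 and 183 CPM in DMSO and 126, 156 and 176 CPM in SAL. It was higher in SAL in pair 1 (0.26) and lower in pairs 2 and 3 (-0.18 and -0.06). The log2 fold change was 0.0013 (SE 0.10, adjusted p = 0.996), with a 95% confidence interval of the fold from 0.861 to 1.16. The exons of RBL2 overlap those of AKTIP on the other strand, and without strand in the counting such reads could not be assigned.

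Ratios of gene counts within a library set these genes against each other with no scaling between libraries. The log2 ratio of RBL1 to RBL2 was -0.26, -1.96 and -0.86 in DMSO and -1.36, -2.64 and -1.90 in SAL. Its change was -1.10, -0.67 and -1.04 in the pairs, a mean of -0.94 ± 0.23 (SD, n = 3). The ratio of E2F1 to E2F4 changed by -0.49, -0.74 and -0.76, a mean of -0.66 ± 0.15, and its 3 SAL values lay below its 3 DMSO values. That of E2F1 to RB1 changed by -1.01, -0.57 and -0.56, and that of E2F2 to E2F3 by -0.83, -0.44 and -1.29, the latter again with no overlap of the groups. With 3 libraries against 3, the two-sided exact permutation test over libraries gave p = 0.1 for E2F1 to E2F4 and E2F2 to E2F3 and p = 0.3 for E2F1 to RB1 and RBL1 to RBL2. Adjusted over the 5 ratios compared, including E2F8 to E2F7, these were 0.25 and 0.375, and this design cannot reach 0.05.

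Per kilobase of the canonical transcript, the level in DMSO was highest for RBL2 (31.9 ± 8.94 CPM per kb, SD, n = 3), followed by TFDP1 (23.9 ± 3.56) and E2F3 (16.9 ± 7.23). RBL1, RB1, E2F4 and E2F1 came next with 13.7 ± 5.13, 13.1 ± 6.27, 12.5 ± 5.68 and 10.7 ± 3.64 CPM per kb, and the SDs of these neighbours exceeded the steps between them. E2F7, E2F8 and E2F2 were lowest with 7.07 ± 2.25, 5.01 ± 1.77 and 1.56 ± 0.49 CPM per kb. From RBL2 down to E2F8, each step was smaller than the larger SD of the neighbouring genes, so their order is not resolved. In SAL the order was kept except that RBL1, at 7.09 ± 2.34, came below RB1 (13.2 ± 5.95) and E2F4 (12.8 ± 6.59). With the union of all annotated exons as the length, E2F1 moved ahead of RB1 and E2F4 in DMSO. RBL2, TFDP1 and E2F3 were then at 19.1, 16.9 and 16.4 CPM per kb in DMSO.

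On this per-kilobase scale, E2F3 together with E2F4 held 41.8%, 62.6% and 55.1% of the summed level of the 6 E2F genes in DMSO replicates 1, 2 and 3, and 53.7%, 72.1% and 66.0% in SAL. Their joint share was higher in SAL in all 3 pairs, while the groups overlapped. The share of E2F1 was 18.4%, 22.9% and 17.5% in DMSO and 15.7%, 17.5% and 15.4% in SAL. Among the pocket protein genes, the share of RBL1 was 35.4%, 13.6% and 23.9% in DMSO and 20.5%, 8.92% and 12.96% in SAL, lower in SAL in each pair. RBL2 held between 49.7% and 65.1% in every library, and the share of RB1 was 14.9%, 24.0% and 25.4% in DMSO and 17.6%, 26.0% and 30.3% in SAL. These shares were computed with the levels in view, follow from them and were not tested separately. They rest on the canonical lengths and were not computed with the union of exons. With that union, E2F4 was at 7.36 in place of 12.5 CPM per kb in DMSO, while E2F1 stayed at 10.7.

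**Figure D3:**
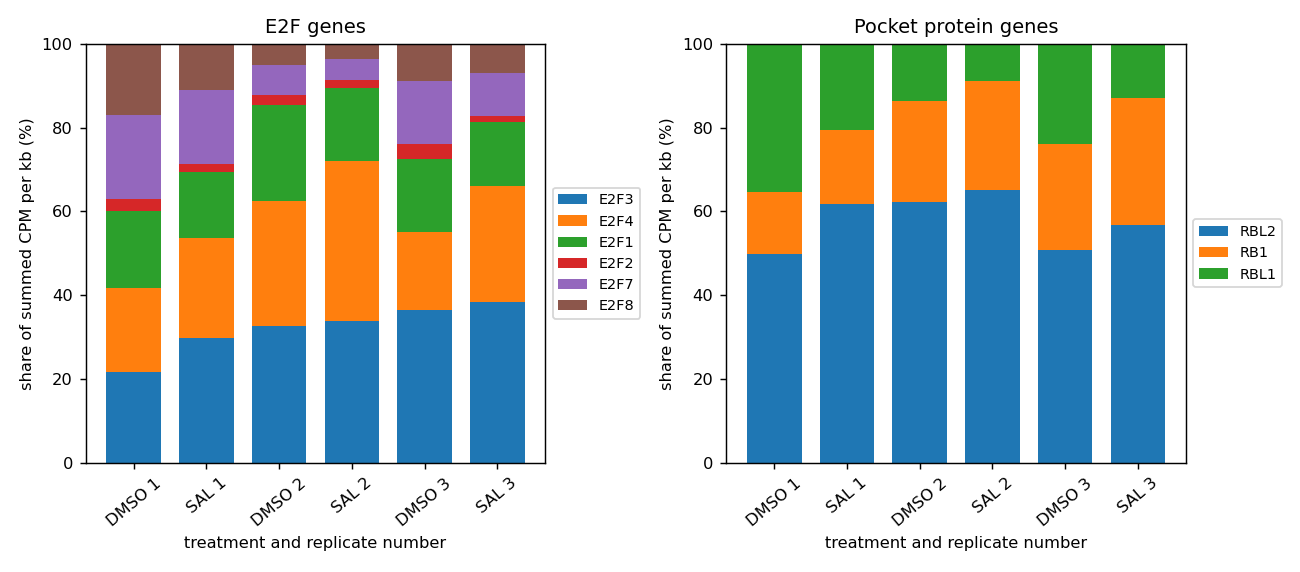
Share in percent (y axis) of each gene in the summed CPM per kb of the 6 E2F genes (left) and the 3 pocket protein genes (right), 1 bar per library in pairs of the same replicate number. The E2F3 and E2F4 segments together are larger, and the RBL1 segment smaller, in each SAL bar than in the DMSO bar of its pair.

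By raw share of the variation, the replicate number was ahead of the treatment in 6 of the 10 genes. The replicate number has more levels than the treatment, which favours it in this count. Of the total sum of squares in log2 CPM, it took 98.8% for RB1, 96.3% for E2F4, 96.0% for E2F3 and 90.1% for RBL2. For E2F1 it took 61.4% and the treatment 37.5%, and for RBL1 the shares were nearly equal at 49.95% and 49.2%. The treatment took the larger share for TFDP1 (70.7%), E2F2 (69.8%), E2F8 (54.7%) and E2F7 (50.9%). E2F1, E2F2, E2F3, E2F4, RB1 and RBL2 were lowest in replicate 1 in both groups, whereas E2F7, E2F8 and RBL1 were lowest in replicate 2 in both. The labels do not say what the replicate numbers stand for.

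Genes whose levels followed these patterns were sought among the other 10308 genes with a mean of at least 10 CPM, by the Pearson correlation of the log2 CPM over the 6 libraries. Closest to E2F1 were MTHFD1L, a mitochondrial folate enzyme gene (r = 0.994), MCM5 of the replicative helicase (r = 0.994) and ASF1B, a histone chaperone gene (r = 0.990), with log2 fold changes of -0.58, -0.70 and -0.91. Closest to RB1 were MARCH6, a ubiquitin ligase gene, ARHGEF12 and TLK1P1, at r = 0.999, 0.999 and 0.998 and with log2 fold changes of 0.03, 0.01 and 0.05. A correlation over 0.95 was reached by 80 genes for E2F1 and by 243 for RB1. The 6 libraries share replicate numbers and treatments, so these correlations are given as a description.

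Among 30 genes widely described as E2F targets, 27 were downregulated and none upregulated, at a median log2 change of -0.60. Among all genes tested, 9.37% were downregulated. This list and the pathway lists below were made with earlier results of these data known, so their counts are a description. CCNA2, the cyclin of S phase, fell from 82.1 to 41.3 CPM on average, with a log2 fold change of -1.03 (SE 0.10, adjusted p = 3.88e-06). TK1, a thymidine kinase, and RRM1, the large subunit of ribonucleotide reductase, had log2 fold changes of -0.96 (adjusted p = 1.27e-05) and -0.80 (adjusted p = 1.87e-05). Among the genes that did not pass were SLBP (-0.22, adjusted p = 0.115) and CCNE1 (0.02, adjusted p = 0.949), picked out with their values in view. Without replicate 3, 13 of the 30 were called, and without the block none was. The 3 named first were called in 9 of 9 settings with the block.

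The MuvB core, which joins E2F4 and RBL1 or RBL2 in the DREAM repressor and the factors MYBL2 and FOXM1 in cycling cells, was followed with those factors as a list of 7. Of these, 4 were downregulated and none upregulated, with a median log2 fold change of -0.47, against 9.37% downregulated among all genes tested. MYBL2 and FOXM1, the activators of late-cycle genes, had log2 fold changes of -0.93 (SE 0.11, adjusted p = 2.37e-05) and -0.79 (SE 0.10, adjusted p = 4.27e-05). LIN9 of the core had -0.93 (SE 0.11, adjusted p = 2.44e-05), with -0.93, -0.95 and -0.90 in the pairs. LIN54 was lower as well (-0.47, adjusted p = 0.00415, called in 8 of 9 settings with the block), whereas LIN52, LIN37 and RBBP4 had values of 0.19, 0.09 and -0.21 and did not pass. LIN37 had 4 to 18 counts per library.

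Of the kinases and cyclins that act on the pocket proteins, with the kinase-activating phosphatase gene CDC25A, 9 of 10 were tested, and 5 were downregulated and 1 upregulated, at a median of -0.40 on the log2 scale, against 9.37% lower and 11.5% higher among all genes tested. Without replicate 3, 2 of these 9 were called. CCNA2, CCNE1, CCNE2 and CDC25A are also in the list of E2F targets above, so the counts of the 2 lists are not separate. The upregulated gene was CDK6, a partner of the D cyclins that phosphorylates RB1, with 99, 220 and 269 counts in DMSO and 228, 493 and 803 in SAL. Its mean level was 26.1 CPM in DMSO and 60.7 CPM in SAL, with a log2 fold change of 1.19 (SE 0.13, adjusted p = 9.75e-06) and with 1.23, 0.84 and 1.45 in the pairs. CDK6 was called in 9 of 9 settings with the block, and its log2 change was between 1.03 and 1.36 over all 10 settings. CDK4, the other kinase of this kind, was lower at -0.40 (SE 0.11, adjusted p = 0.0145), and it was not called with DESeq2 or without replicate 3. CDK2, the partner of the E and A cyclins, had a log2 fold change of -0.48 (SE 0.11, adjusted p = 0.00563), and it was not called without replicate 3 (adjusted p = 0.105). CCND1, the D cyclin with the highest counts here, was at a mean of 279 CPM in DMSO and 309 CPM in SAL (log2 fold change 0.16, adjusted p = 0.237), and CCND3 and CCNE1 did not pass either. CCND2 had at most 4 counts in a library and was not tested. CDK4, CDC25A, the D cyclins and the LIN and RBBP4 genes beside LIN9 were picked with their values in view.

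Of the 7 CDK inhibitor genes, 1 was upregulated and none downregulated, at a median of -0.04 on the log2 scale, where 20.8% of all genes tested were called in either direction, so this count is near the background. This was CDKN1C, which encodes an inhibitor of G1 kinases, with 4, 18 and 4 counts in DMSO and 12, 55 and 17 in SAL, a log2 fold change of 1.501 (SE 0.37, adjusted p = 0.00874). It was called in 5 of the 8 settings with the block in which it was tested. CDKN2C and CDKN2B had values of -0.29 (adjusted p = 0.187) and 0.49 (adjusted p = 0.254). Of the 10 genes of chromatin factors that bind RB1 or its complexes, 2 were downregulated and 1 upregulated, with a median of -0.01, a count near the 20.8% called among all genes tested. None of these 10 was called without replicate 3. RBBP8, a DNA end resection factor first found through its binding to RB1, was at -0.68 on the log2 scale (adjusted p = 0.00137), and the maintenance DNA methyltransferase gene DNMT1 was at -0.35 (adjusted p = 0.0142), each called in 8 of 9 settings with the block. RBBP7, a histone-binding protein gene, was at 0.28 (adjusted p = 0.0459, and not called in 4 of 9 settings with the block).

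**Figure D4:**
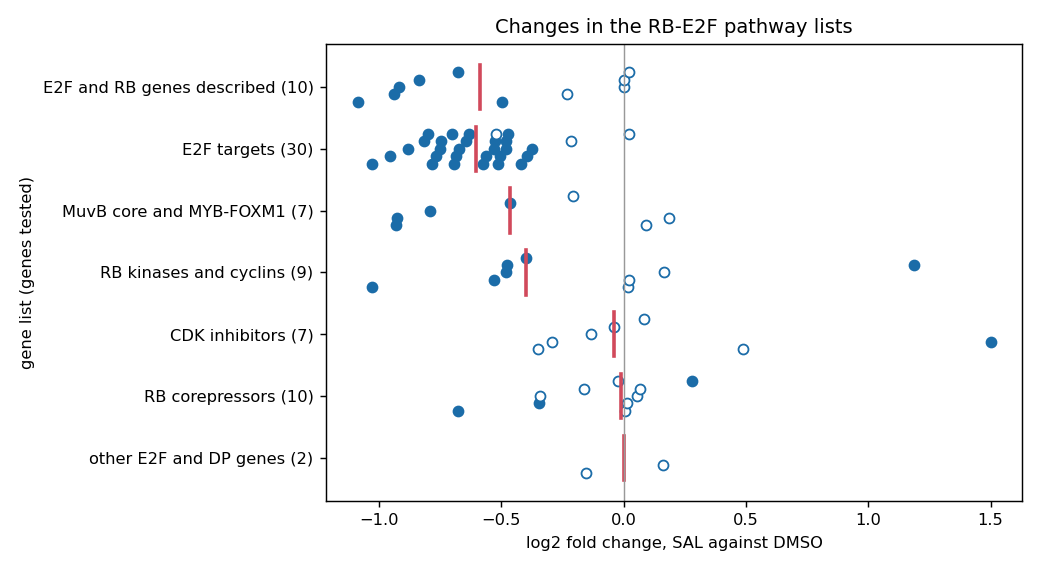
Log2 fold change of SAL against DMSO (x axis) of each tested gene in 7 gene lists (y axis, with the number tested). Filled points had an adjusted p under 0.05 and red lines are list medians. The E2F target points lie almost all below 0 around their median of -0.60, and CDK6 and CDKN1C stand out to the right at 1.19 and 1.501.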

How the data were processed

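RNA-seq counts of 6 C4-2 libraries were used, 3 DMSO and 3 SAL. The deposited values are raw counts per gene symbol. The authors trimmed low-quality bases, aligned read 1 of each pair to hg19 with TopHat2 2.1.0 and ran HTSeq 0.11.2 with the gencode annotation and no strand. The groups and replicate numbers came from the labels. The members and gene lists were chosen with earlier results of these data known. Named genes were the 10 members, the 3 genes with the smallest adjusted p in each list, genes called against their list, and the 3 closest in level to E2F1 and RB1.

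After removal of 523 rRNA symbols, filterByExpr and TMM, SAL was compared with DMSO in edgeR 4.0.16 (R 4.3.3, robust quasi-likelihood test, replicate number as a block), tested first on simulated data. The study's methods name a paired test. Same-numbered libraries deviated together (correlations 0.89, 0.86 and 0.74). With the block, the edgeR p-values measure the spread between libraries that is left once differences between replicate numbers are removed. Nothing in the labels says that the replicates were separate cultures, so this need not be a spread between cultures. The SE is the absolute log2 fold change over the square root of F. A prior count of 2 was used for pair changes in log2 CPM, and 0.5 for ratios. Gene spans and transcript lengths came from GRCh37 (the assembly of hg19) with a newer gencode release lifted to it, and promoters from RefSeq on GRCh38.p14, with no coordinates converted. Alternatives were DESeq2 1.42.0, its size factors, no block, other filters, rRNA genes kept, mitochondrial genes removed and each replicate left out.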

Additional observations from a re-analysis of the deposited data

How the results depend on the processing

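The number of downregulated genes among the 10 stayed at 6 with DESeq2, with its size factors, with no filter or a minimum of 10 counts, with rRNA genes kept and with mitochondrial genes removed, and was between 4 and 7 when a replicate was left out. Without the replicate block it was 0, the pathway lists held 0 called genes in place of 38, and 21 of all genes were called in place of 3508. Same-numbered libraries deviated together, and without the block this shared variation stays in the spread that the test uses. DESeq2 with the block called 2240 of all genes. With a replicate left out, between 1233 and 4398 of all genes and between 17 and 37 pathway genes were called, the lowest in each case without replicate 3. E2F2 and TFDP1 lost their call without replicate 3, and E2F3 gained one without replicate 1 (-0.27).

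Values near 0 changed sign. E2F4 had log2 fold changes of -0.0158 with DESeq2, -0.0077 with its size factors and -0.0013 with at least 10 counts, and between -0.12 and 0.13 with a replicate left out. RBL2 had -0.0056, -0.0062 and -8.11e-05 in the same 3 settings, -0.0255 without the block, and between -0.12 and 0.0769 with a replicate left out. RB1 was between -0.0476 and 0.0826 with a replicate left out. The change of the E2F8 to E2F7 ratio was between -0.217 and 0.108 with a replicate left out, and a prior count of 2 moved none of the 5 ratios by more than the SD of its pair changes. The cause of these shifts was not tested. Among the 10 genes, E2F2 had the lowest depth, with 22 counts in its lowest library, and of the tested pathway genes, CDKN1C and LIN37 had 4.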
